A study of Mus musculus with 4 samples.

Results

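Interleukins 4, 5 and 13 are the cytokines that define type 2 immunity. Interleukin 5 drives the production and survival of eosinophils, interleukin 13 acts on airway epithelium and smooth muscle, and interleukin 4 promotes IgE class switching and the T helper 2 fate. In the allergic lung they come mainly from group 2 innate lymphoid cells (ILC2) and T helper 2 cells, with basophils as a further source of interleukin 4. Epithelial alarmins start the response: interleukin 33 binds ST2, the receptor encoded by Il1rl1, and interleukin 25 binds the receptor that contains Il17rb. Gata3 is the transcription factor of the type 2 lineages, and Calca encodes the neuropeptide CGRP. Il4ra encodes the receptor chain shared by interleukins 4 and 13, and Il13ra1 its partner in the type II receptor.

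These 9 genes, Il4, Il5, Il13, Il1rl1, Il17rb, Gata3, Calca, Il4ra and Il13ra1, and the ST2 antibody tag were taken by name, as 9 of 32285 gene rows and 1 of 5 antibody tags. No cut-off on a measured value chose them, but earlier results of these data were known when they were chosen. They were measured in leukocytes sorted from digested lungs by droplet-based 3′ RNA sequencing with antibody tags, in which each molecule is counted once as a UMI (unique molecular identifier). Wild-type (WT) mice and Plaur–/– mice, labelled as knockouts (KO) of the gene of the urokinase receptor, were both of strain C57B6/J per the labels. All had been sensitized with LPS and ovalbumin (OVA) on days 0 and 7 and challenged with aerosolized OVA on day 14. The design names 8 mice per genotype. How many of them are in a library, and their age, was not stated in the labels, which call the material both circulating CD45.2+ leukocytes and a total lung lysate.

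There was 1 RNA library and 1 antibody library per genotype, so genotype, mouse and library preparation cannot be told apart and no difference has a replicate check. Plaur RNA was found at 527 and 455 CPM (a gene's UMIs scaled to a total of 1000000 gene UMIs) in the 2 RNA libraries. A 3′ tag can lie outside a deleted part, so this checks nothing. The libraries are called WT-labelled and KO-labelled, and all directions rest on those labels. They held 42913843 and 47442215 gene UMIs. After filters 8684 and 9584 cells were kept, with medians of 3209 and 2778 UMIs. In each pair of values below the WT-labelled library comes first. Ratios are log2 of KO-labelled over WT-labelled, and intervals are 95% intervals that cover counting error only. Cells were clustered without the 9 genes, classes were named from other markers and carry the ending "-like", and a cluster that could not be named is called by its 2 leading genes.

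The sequences that these measurements turn on are the antibody tag and the promoters of the genes found in ILC2-like cells. The tag is read as a synthetic DNA barcode of 15 bases. It differs from each of the other 4 tags at 11 or more positions, so a single sequencing error does not turn another tag into ST2. Tag barcodes:
ST2: gcgatggagcatgtt
CD11b: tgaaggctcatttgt
CD14: aaccaacagtcacgt

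Il13 and Il5 lie beside Il4 on chromosome 11 (build GRCm38.p6), at 53631323 to 53634702 for Il13, 53720794 to 53725103 for Il5 and 53612460 to 53618665 for Il4. Il1rl1 lies on chromosome 1 at 40404864 to 40465418. The 250 bases before a RefSeq start site are shown for 3 of them, because the GATA3 protein binds the letters GATA and Gata3 RNA was highest in ILC2-like cells, where these genes were also found. Capitals mark GATA or, where it is on the other strand, TATC:
Il13, chr11:53634703-53634952, minus strand: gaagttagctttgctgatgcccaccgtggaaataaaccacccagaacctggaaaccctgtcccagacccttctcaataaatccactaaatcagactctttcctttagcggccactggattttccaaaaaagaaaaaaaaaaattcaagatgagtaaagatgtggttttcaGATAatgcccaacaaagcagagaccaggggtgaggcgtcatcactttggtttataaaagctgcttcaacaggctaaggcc
Il5, chr11:53720544-53720793, plus strand: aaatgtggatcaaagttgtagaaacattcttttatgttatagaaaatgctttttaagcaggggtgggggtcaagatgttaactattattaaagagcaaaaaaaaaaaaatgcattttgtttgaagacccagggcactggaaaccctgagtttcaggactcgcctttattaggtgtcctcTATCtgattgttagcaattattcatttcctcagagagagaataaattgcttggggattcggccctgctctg
Il1rl1, upstream start, chr1:40429320-40429569, plus strand: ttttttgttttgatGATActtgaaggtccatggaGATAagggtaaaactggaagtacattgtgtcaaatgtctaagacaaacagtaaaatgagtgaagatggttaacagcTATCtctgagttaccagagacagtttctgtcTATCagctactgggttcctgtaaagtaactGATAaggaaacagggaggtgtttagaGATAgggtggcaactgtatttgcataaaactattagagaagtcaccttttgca

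GATA, counted on both strands, occurred 1 time in the Il13 window, 1 time in the Il5 window and 6 times in the Il1rl1 window, and at least once in 53.6% of 32851 promoter windows of this length. The longer string AGATAA, which contains GATA, was in the Il13, Il1rl1 and Calca windows and in 9.99% of all windows. The windows scanned before Gata3, Il4ra, Il17rb and Il13ra1 starts held no GATA. The Gata3 window, at 9878601 to 9878850, lies inside the gene (9857078 to 9887953), as do the Calca and Il1rl1 windows inside theirs. The outermost starts of these genes were thus not covered, and the Il1rl1 start called upstream is the more upstream of those scanned. For Il4, the window at 53618666 to 53618915 held none and that at 53617339 to 53617588 held 3. Another Il1rl1 window, at 40439379 to 40439628 and not shown, held 2. These matches describe letters and no binding was measured.

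Cytokine RNA was concentrated in very few cells. Il4 was counted at 226 and 159 UMIs in 41 and 27 cells, Il5 at 353 and 282 UMIs in 35 and 45 cells, and Il13 at 306 and 156 UMIs in 33 and 22 cells. Only 80 of 8684 and 72 of 9584 cells held any of the 3, and 38 and 36 cells held 3 UMIs or more. For Il13, 4 WT-labelled and 3 KO-labelled cells carried 50% of all UMIs. T, NK and innate lymphoid clusters together held 85.8% and 99.4% of Il4, 99.4% and 98.6% of Il5 and 97.7% and 96.2% of Il13 UMIs. ILC2-like cells held 59.8% of all cytokine UMIs of the WT-labelled library and 30.5% of those of the KO-labelled library. A CD4 T-like cluster led by Il17a and Angptl2 held 32% and 49.6%.

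**Figure D1:**
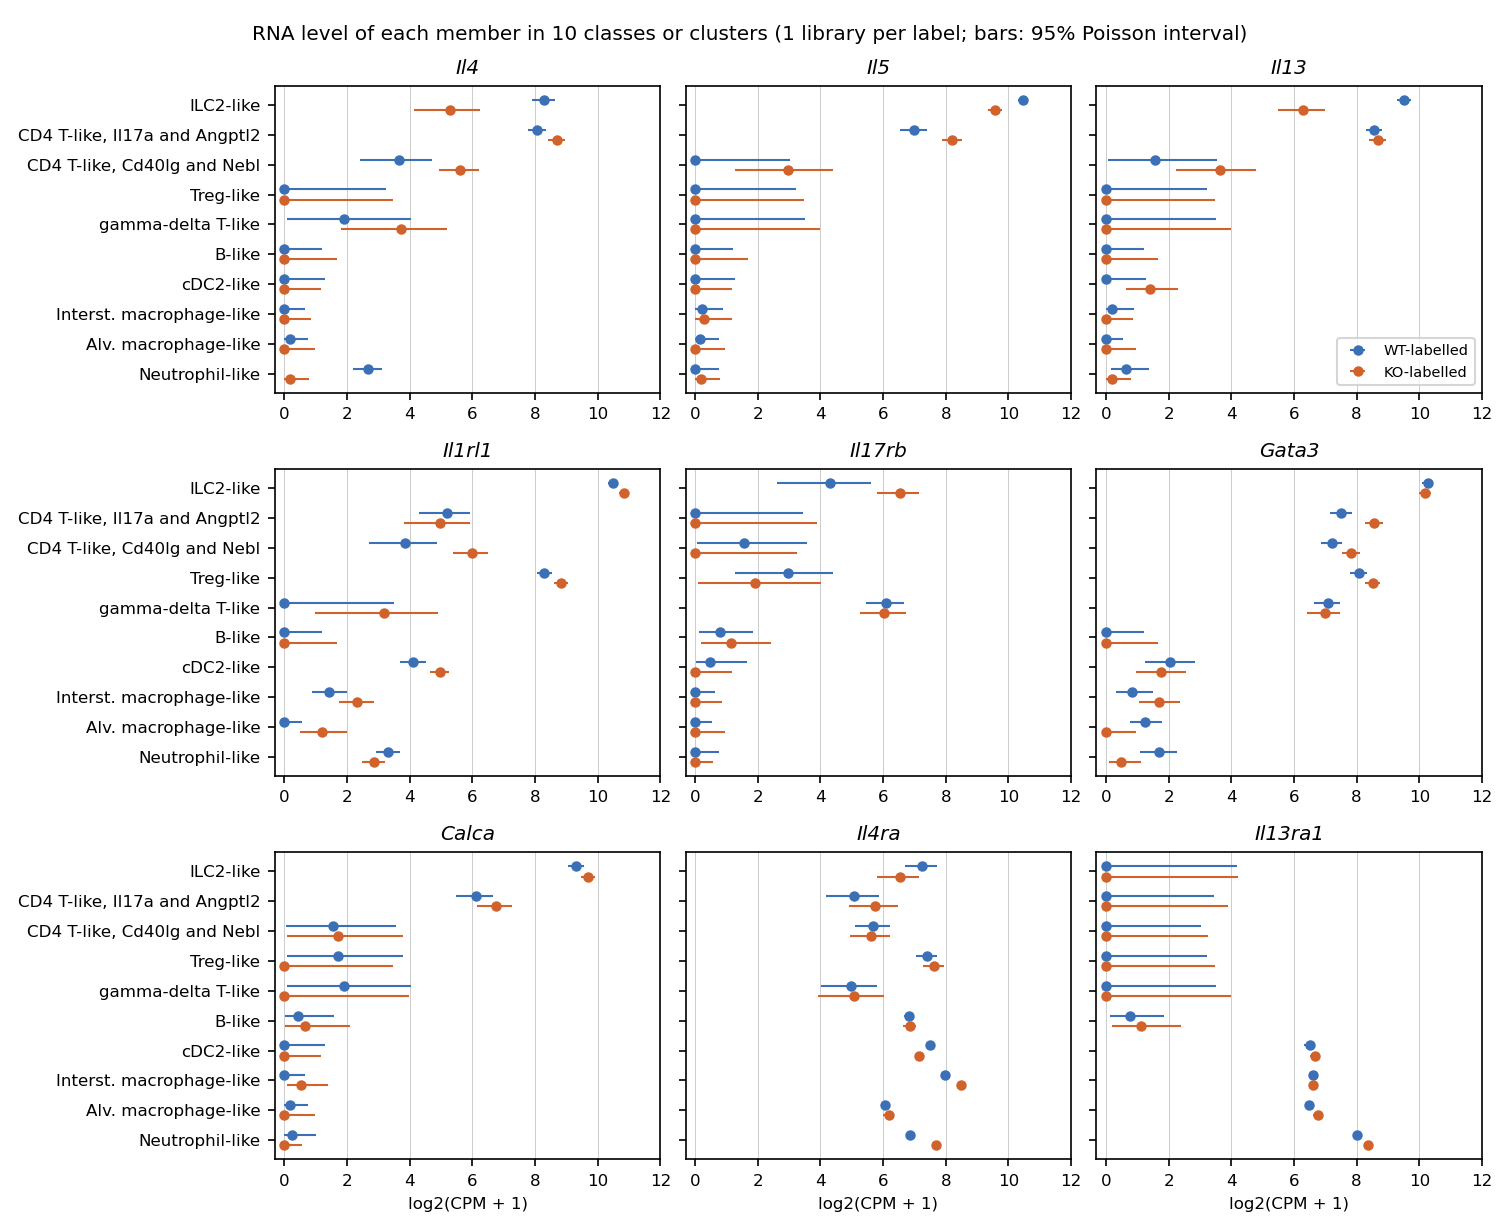
RNA level of the 9 genes as log2(CPM + 1) in 10 classes or clusters, with 1 point per library and 95% Poisson intervals. Il5, Il1rl1, Gata3 and Calca stand highest in ILC2-like cells, Il13ra1 is confined among these classes to myeloid cells apart from 4 UMIs in B-like cells, and Il4ra is found in every class shown.

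ILC2-like cells, innate lymphocytes that answer alarmins without an antigen receptor, numbered 56 (0.645% of kept cells, interval 0.487% to 0.837%) and 65 (0.678%, interval 0.524% to 0.864%). The class was named from 12 detected markers, among them Rora, Klrg1, Areg and Kit, none of which is a member. Cd3e, part of the T cell receptor complex, was found in 1.79% and 3.08% of its cells, and Cd4 and Foxp3 in none. Gata3 was carried by 55 of 56 and 62 of 65 of these cells at 1242 and 1164 CPM, the highest level of any class compared, and the ratio of -0.09 had an interval from -0.35 to 0.16. Il1rl1 was carried by 52 and 59 cells. B-like cells, which should lack it, held none in 1109 and 766 cells at median depths of 2249 and 1960 UMIs, against 3520 and 3028 in ILC2-like cells. That zero allows a share of cells with an Il1rl1 UMI of up to 0.271% and 0.392%, and does not bound the share that expresses the gene. With each cell thinned to 1000 UMIs, Il1rl1 was still found in 67.3% and 70.8% of ILC2-like cells.

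Il5 was the cytokine most widely spread among ILC2-like cells. It was found in 30 of 56 WT-labelled cells (53.6%, interval 39.7% to 67%) at up to 46 UMIs in a cell, and in 26 of 65 KO-labelled cells (40%, interval 28% to 52.9%) at up to 26. The class total was 305 and 158 UMIs, or 1418 and 757 CPM, a ratio of -0.91 (interval -1.19 to -0.62). Leaving out the 5 highest Il5 cells of each library gave -0.87. With cells thinned to 1000 UMIs, which gives shallow and deep cells the same weight, the ratio was -0.45 and the share of cells with Il5 was 30.9% and 29.2%. Without thinning the level was lower in the KO-labelled library, while the intervals of the shares of cells overlapped. The thinned ratio rests on 59 and 51 UMIs and no interval was computed for it. Clustering with the 9 genes kept in gave a larger class and a ratio of -0.59.

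Of the members in ILC2-like cells, Il13 had the ratio farthest from 0. In the WT-labelled ILC2-like cells 16 of 56 carried it (28.6%, interval 17.3% to 42.2%), and the cells with most held 47, 31, 16 and 13 UMIs. In the KO-labelled class 7 of 65 carried it (10.8%, interval 4.44% to 20.9%), of which 1 held 9 UMIs, 1 held 2 and 5 held 1. Totals were 157 and 16 UMIs, or 730 and 76.7 CPM, a ratio of -3.25 (interval -4.09 to -2.51). Leaving out the 5 highest Il13 cells of each library gave -4.35, and the thinned shares were 20% and 7.69%. Pooling in the unnamed lymphoid cluster led by Il1rl1 and Ptpn13, described below, gave -2.02.

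Il4 in ILC2-like cells rested on 2 cells. It was found in 6 and 7 cells, at 67 and 8 UMIs, of which 32 and 31 lay in 2 WT-labelled cells. No KO-labelled cell held over 2 UMIs. The ratio of -3.02 (interval -4.29 to -1.96) became 1.01 when the 5 highest cells of each library were left out, with 1 and 2 UMIs remaining. The shares of cells with Il4 were 10.7% (interval 4.03% to 21.9%) and 10.8% (interval 4.44% to 20.9%).

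Calca was a second product of the same class. ILC2-like cells held 77.3% and 61% of all Calca UMIs, in 23 and 22 cells, at 632 and 824 CPM (ratio 0.38, interval 0.05 to 0.72), and single cells reached 28 and 41 UMIs. Of the cells with Il5, 14 of 30 and 13 of 26 also carried Calca. Il17rb was low, with 4 UMIs in 2 cells and 19 UMIs in 9 cells (ratio 2.29, interval 0.70 to 4.31). Il4ra was found in 21 and 15 cells at 149 and 91 CPM (ratio -0.71, interval -1.61 to 0.15). Il13ra1 was not found in any ILC2-like cell, which allows up to 14 and 14.4 CPM. Of the 8 members with 20 or more UMIs in the class, 3 lay past 2-fold, Il4 and Il13 lower and Il17rb higher in the KO-labelled library, where 8.96% of all 3472 genes with 20 or more UMIs lay past 2-fold. The median ratio of those genes was 0.04.

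**Figure D2:**
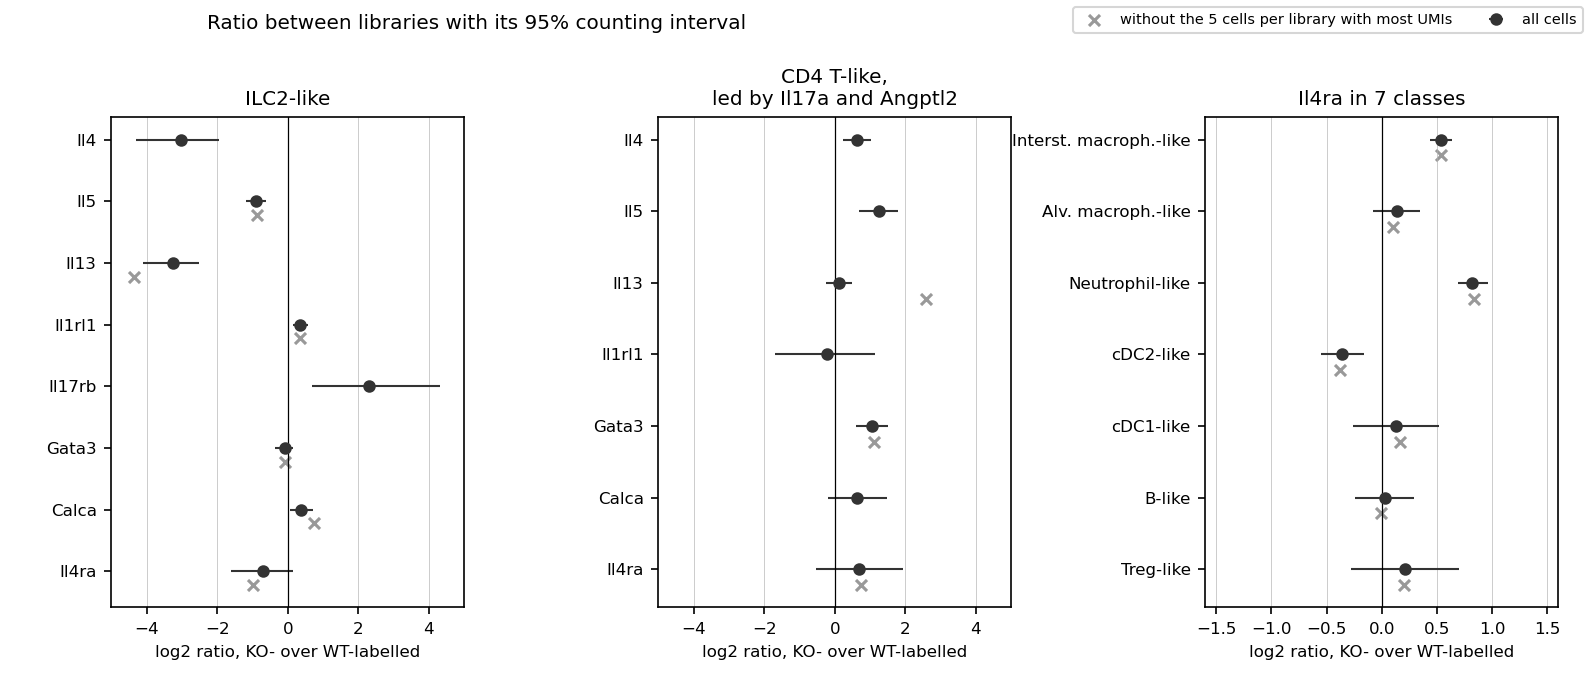
Log2 ratio between the libraries (KO-labelled over WT-labelled) for the members in ILC2-like cells and in the CD4 T-like cluster led by Il17a and Angptl2, and for Il4ra in 7 classes, with 95% counting intervals as bars, and crosses for the value when the 5 highest cells of each library are left out, drawn where enough UMIs remained. Il13 and Il5 lie below 0 in ILC2-like cells with and without those cells, whereas for Il13 in the CD4 T-like cluster the cross (2.59) lies far from the point (0.12).

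Il5 and Il13 were found together within single ILC2-like cells. Of the WT-labelled cells with Il5, 46.7% also carried Il13, and of those without Il5, 7.69% did. In the KO-labelled library these shares were 19.2% and 5.13%. All 3 cytokines were found together in 4 WT-labelled cells and in no KO-labelled cell. After thinning, the shares with and without Il5 were 41.2% and 10.5% in WT-labelled cells, and 10.5% and 6.52% in KO-labelled cells. Each ILC2-like cell with 3 or more cytokine UMIs, 23 and 18 cells, carried Il1rl1 and Gata3. Most ILC2-like cells without a cytokine UMI did too: 21 of 23 and 29 of 33 carried Il1rl1, and 22 of 23 and 30 of 33 Gata3.

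The other main source, second in the WT-labelled and first in the KO-labelled library, was the CD4 T-like cluster led by Il17a, the cytokine of T helper 17 cells, and Angptl2. It held 107 and 89 cells, and 11 and 14 of them carried a type 2 cytokine. The cell with most cytokine UMIs of each library lay here, with 80 and 74 UMIs, against at most 68 and 26 in an ILC2-like cell. The WT-labelled cell with most held 49 Il4, 15 Il5 and 16 Il13 UMIs, and the next 5, 19 and 24. The KO-labelled cell with most held 37, 10 and 27, and the next 39, 11 and 11. Cytokines came in combination: 5 of 11 and 7 of 14 cells carried at least 2 of the 3. Il17a was found in 1 of the 11 and 2 of the 14, and in 20 of 96 and 20 of 75 cells of the cluster without a type 2 cytokine.

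**Figure D3:**
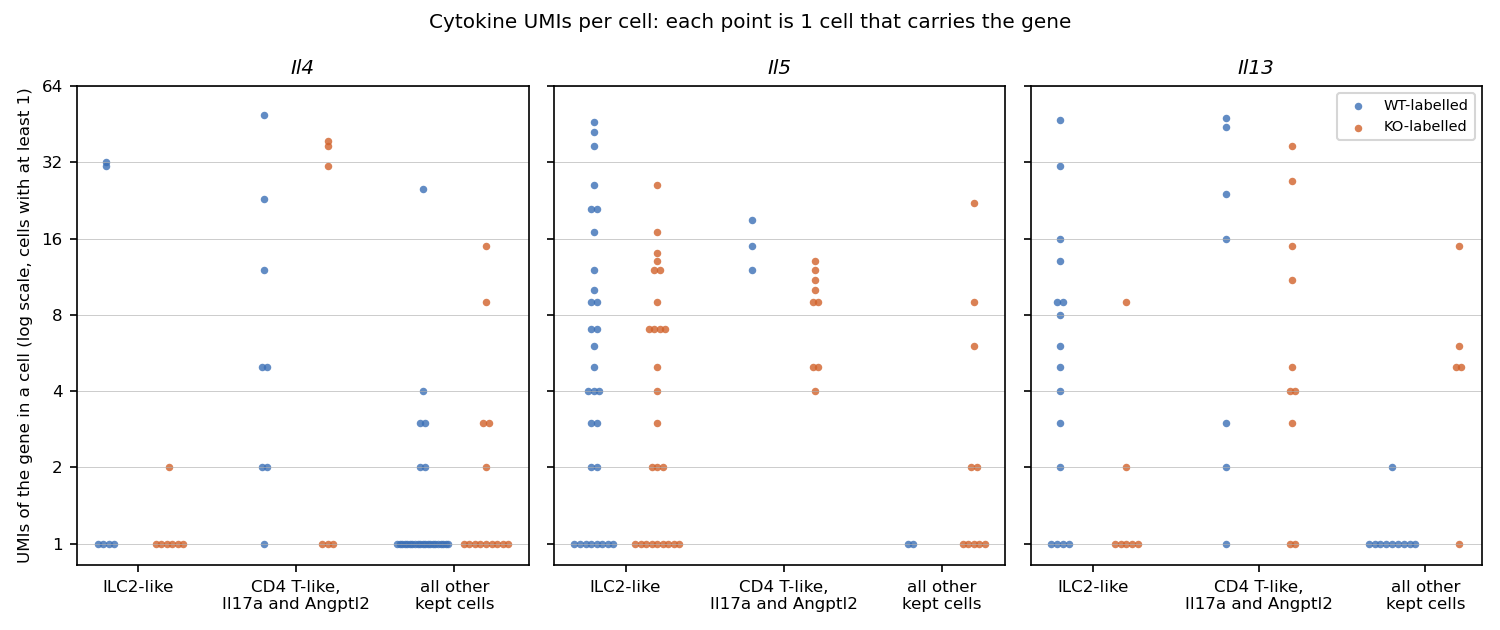
UMIs of Il4, Il5 and Il13 in every kept cell that carries the gene (1 point per cell, log scale), for ILC2-like cells, the CD4 T-like cluster led by Il17a and Angptl2 and all other cells. In ILC2-like cells the highest Il13 count is 47 (WT-labelled) and 9 (KO-labelled), and in the CD4 T-like cluster it is 48 and 37.

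These T cells differed from ILC2-like cells in their alarmin receptor. Il1rl1 was found in 1 of 11 and 3 of 14 cytokine-carrying cells of the cluster, against 31 of 33 and 30 of 32 in ILC2-like cells. Gata3 was found in 9 of 11 and 11 of 14, and in 21 of 96 and 29 of 75 of the cells without a cytokine. Il17rb was not found in the cluster. Calca lay in 3 cells of each library, of which 1 per library held 23 UMIs. The Il13 ratio of 0.12 had an interval from -0.26 to 0.49, but it was 2.59 when the 5 highest Il13 cells of each library were left out, with 3 and 13 UMIs remaining. For Il4 the ratio of 0.63 (interval 0.22 to 1.03) became -1.83, with 5 UMIs and 1 UMI left. Il5 was at 46 UMIs in 3 cells and 78 UMIs in 9 cells (ratio 1.24, interval 0.69 to 1.79). Il5 and Gata3 (ratio 1.05, interval 0.59 to 1.52) were 2 of 7 members past 2-fold higher, where 4.41% of 4785 genes were.

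Of the other carriers, those of 3 lymphoid clusters and of neutrophil-like cells are described here, and the remaining classes together held few, with at most 5 cytokine UMIs in a class. A CD4 T-like cluster led by Cd40lg and Nebl held Il4 at 6 UMIs in 5 cells and 21 UMIs in 3 cells, of which 1 cell held 15. In it Il4 and Il1rl1 (7 and 27 UMIs) were 2 of 4 members past 2-fold higher, where 1.89% of 6153 genes were. An unnamed lymphoid cluster led by Atp8a2 and Art2b carried a cytokine in 10 of 36 and 6 of 20 cells, at no more than 4 UMIs in a cell. The unnamed lymphoid cluster led by Il1rl1 and Ptpn13 had 22 and 21 cells. It held 2 WT-labelled cytokine UMIs against 69 KO-labelled ones, the latter in 4 cells that all carried Il1rl1, Gata3 and Calca. Its mean CD11b tag was 92.1 and 55.7 UMIs, against 5.71 and 5.54 in ILC2-like cells, and S100a8, a neutrophil gene, was at 6299 and 5307 CPM against 18.6 and 76.7. What part those have in its values was not tested.

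Among neutrophil-like cells Il4 was found at 29 UMIs and 1 UMI. Of the 29, 28 lay in 3 barcodes that carried 5 or 6 of 10 basophil or mast cell markers, such as Mcpt8, Cpa3 and Gata2, and 25 in 1 of them. The KO-labelled library had 4 barcodes with 3 or more of these markers, of which 2 were left out as doublet calls, and 1 of those 2 held 11 Il4 UMIs. The ratio of -5.32 (interval -10.67 to -2.73) compared a handful of barcodes. It was -0.51 with doublet calls kept and -0.46 with the members kept in the clustering. Il4 was the single one of 4 members past 2-fold in a class where 5.77% of 9199 genes were. Doublet calls also held 53 Il13 UMIs of the KO-labelled library, 51 of them in 1 barcode, so the kept totals of 306 and 156 leave out a strong producer.

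Regulatory T-like cells, CD4 T cells that restrain other responses, were the second named class by Il1rl1. They numbered 135 and 127. Il1rl1 was carried by 45 (33.3%, interval 25.5% to 42%) and 53 (41.7%, interval 33% to 50.8%) of them at 314 and 454 CPM, a ratio of 0.53 (interval 0.20 to 0.87), and of 0.66 when the 5 highest cells of each library were left out. Gata3 was at 269 and 363 CPM (ratio 0.43, interval 0.07 to 0.81). They held no Il4, Il5 or Il13 UMI, which allows up to 6.83 and 8.25 CPM of each. None of the 3 members with 20 or more UMIs was past 2-fold, where 5.36% of 5764 genes were.

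Type 2 conventional dendritic (cDC2-like) cells, which present antigen to CD4 T cells, carried Il1rl1 in 30 of 379 (7.92%) and 56 of 379 (14.8%) cells. The level was 16.4 and 30.2 CPM and the ratio 0.89 (interval 0.34 to 1.45). With cells thinned to 1000 UMIs, 7 UMIs were left in each library and the ratio was -0.12. None of 3 members was past 2-fold, where 4.88% of 9792 genes were. Neutrophil-like cells carried Il1rl1 in 42 of 2279 (1.84%) and 42 of 3314 (1.27%) cells, at 9.03 and 6.29 CPM (ratio -0.52, interval -1.13 to 0.09). Both shares lay above the zero of B-like cells. By level, Il1rl1 thus ran from ILC2-like to regulatory T-like cells, with intervals that did not overlap. The CD4 T-like cluster led by Cd40lg and Nebl (13.6 and 62 CPM), that led by Il17a and Angptl2 (35.3 and 30.2) and cDC2-like cells (16.4 and 30.2) followed. Their order differed between the libraries, and of these 3 the KO-labelled Cd40lg and Nebl cluster (interval 40.9 to 90.2) lay above KO-labelled cDC2-like cells (24.3 to 37.2). Outside the named classes, the unnamed lymphoid cluster led by Il1rl1 and Ptpn13 was at 95.8 and 612 CPM. Il1rl1 is 1 row in the matrix, so transcripts of the membrane and the soluble receptor were counted together.

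Il17rb, the receptor chain for interleukin 25, had 45 and 50 UMIs in all. Gamma-delta T-like cells, named after T cells with the alternative antigen receptor, held 24 and 16 of them in 17 of 87 and 13 of 66 cells. The level was 67.1 and 64.7 CPM (ratio -0.05, interval -1.06 to 0.92). The delta chain gene Trdc was found in 32.2% and 30.3% of this class, and Trac, of the alpha-beta receptor, in 44.8% and 54.5%. Whether the class holds other T cells was not tested. In ILC2-like cells Il17rb was at 18.6 (interval 5.07 to 47.6) and 91 CPM (interval 54.8 to 142), and the intervals of the 2 classes overlapped in each library. Only 1 of 52 and 8 of 59 ILC2-like cells with Il1rl1 also carried Il17rb.

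Among classes and clusters of at least 30 cells, the mean ST2 antibody tag was highest where Il1rl1 RNA was highest, above a background found in every class. The tag totalled 7575 and 9167 UMIs, 0.775% and 0.677% of all tag UMIs, and 42.8% and 48.3% of kept cells had at least 1. B-like cells, without Il1rl1 RNA, had a mean of 0.723 and 0.860 tag UMIs per cell. ILC2-like cells had 2.68 and 2.25, which is 1.89 (interval 1.63 to 2.14) and 1.38 (interval 1.12 to 1.65) above B-like cells on the log2 scale. Regulatory T-like cells had 1.19 and 1.14, or 0.72 (interval 0.47 to 0.97) and 0.41 (interval 0.14 to 0.67) above B-like cells. Among the other classes and clusters of at least 30 cells the means ran from 0.455 and 0.6 upwards and did not exceed those of regulatory T-like cells. The smaller unnamed lymphoid cluster led by Il1rl1 and Ptpn13 had a mean of 5.0 in its 4 KO-labelled cells with a cytokine and 1.06 in the 17 without. The CD14 tag, at a mean of 2.77 and 2.72 in ILC2-like and 3.02 and 2.44 in B-like cells, did not separate the same classes.

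**Figure D4:**
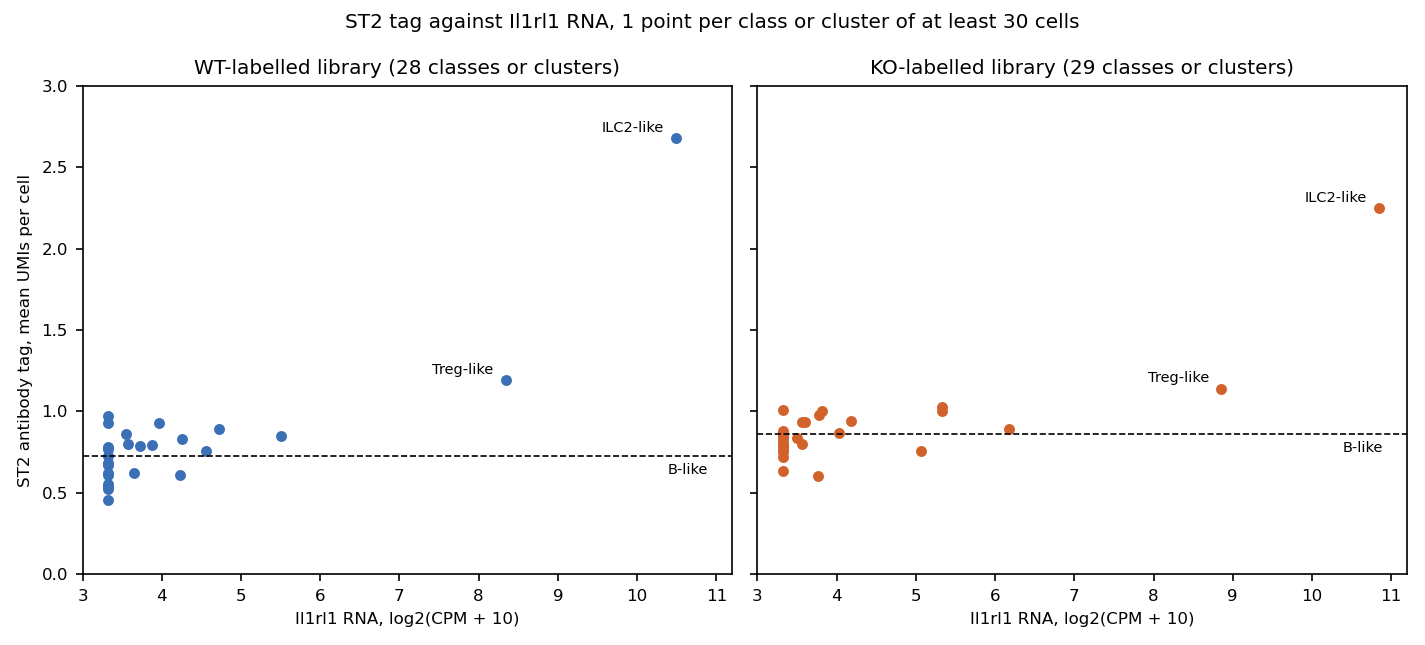
Mean ST2 tag UMIs per cell against Il1rl1 RNA as log2(CPM + 10), 1 point per class or cluster of at least 30 cells in each library, with the B-like mean as a dashed line. ILC2-like cells (2.68 and 2.25 tag UMIs) stand apart, regulatory T-like cells (1.19 and 1.14) come next, and all other points lie near the line.

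Across 28 and 29 classes or clusters, tag and RNA had a Pearson r of 0.81 and 0.78 and a Spearman rho of 0.56 and 0.57, as a description of points that share a library and an antibody pool. Without ILC2-like cells r was 0.55 and 0.49. Between libraries the ILC2-like tag mean had a ratio of -0.25 (interval -0.59 to 0.08), and the B-like background one of 0.25 (interval 0.10 to 0.40). Relative to B-like cells the ILC2-like ratio was -0.50 (interval -0.87 to -0.14). Il1rl1 RNA in ILC2-like cells was at 1432 and 1835 CPM, a ratio of 0.36 (interval 0.14 to 0.58). In the main setting the RNA was thus higher in the KO-labelled library, while the tag was lower relative to B-like cells. The unscaled tag ratio had an interval that included 0. The size of both differences depended on the setting. With each cell thinned to 1000 UMIs the RNA ratio was 0.15, on 86 and 113 UMIs. With the members kept in the clustering the RNA ratio was 0.68. Over 2 alternatives the tag ratio relative to B-like cells ran from -0.25 to -0.24.

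Over all kept cells together, which mixes classes, the mean tag was higher at each step of Il1rl1 RNA. Cells with 0, 1, 2 to 4, 5 to 9 and 10 or more Il1rl1 UMIs had mean tags of 0.787, 0.981, 1.92, 2.79 and 3.36 in the WT-labelled library. The same steps gave 0.872, 1.13, 1.46, 2.19 and 5.0 in the KO-labelled library. Within regulatory T-like cells the mean tag was 0.8 in 90 cells without Il1rl1 and 2.11 in 28 cells with 2 or more UMIs in the WT-labelled library, and 0.784 in 74 and 2.06 in 35 cells in the KO-labelled library. Cells with 1 UMI had 1.76 (interval 1.19 to 2.52) and 0.833 (interval 0.466 to 1.37). In CD4 T-like clusters the mean was 0.717 and 0.907 without Il1rl1 and 1.89 and 2.15 in the 9 and 13 cells with it. Within ILC2-like cells with 0 to 4, 5 to 9 and 10 or more Il1rl1 UMIs the means were 2.58, 3.07 and 2.4 in the WT-labelled library, with no steady order, and 1.69, 2.12 and 4.2 in the KO-labelled library. In cDC2-like cells with 0, 1 and 2 or more UMIs they were 0.86, 0.875 and 2.67 (6 cells) and 0.966, 1.61 and 1.1. Within ILC2-like cells r between log2 tag and log2 RNA was 0.15 and 0.32, beside 0.32 and 0.15 between the tag and the gene UMIs of a cell.

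**Figure D5:**
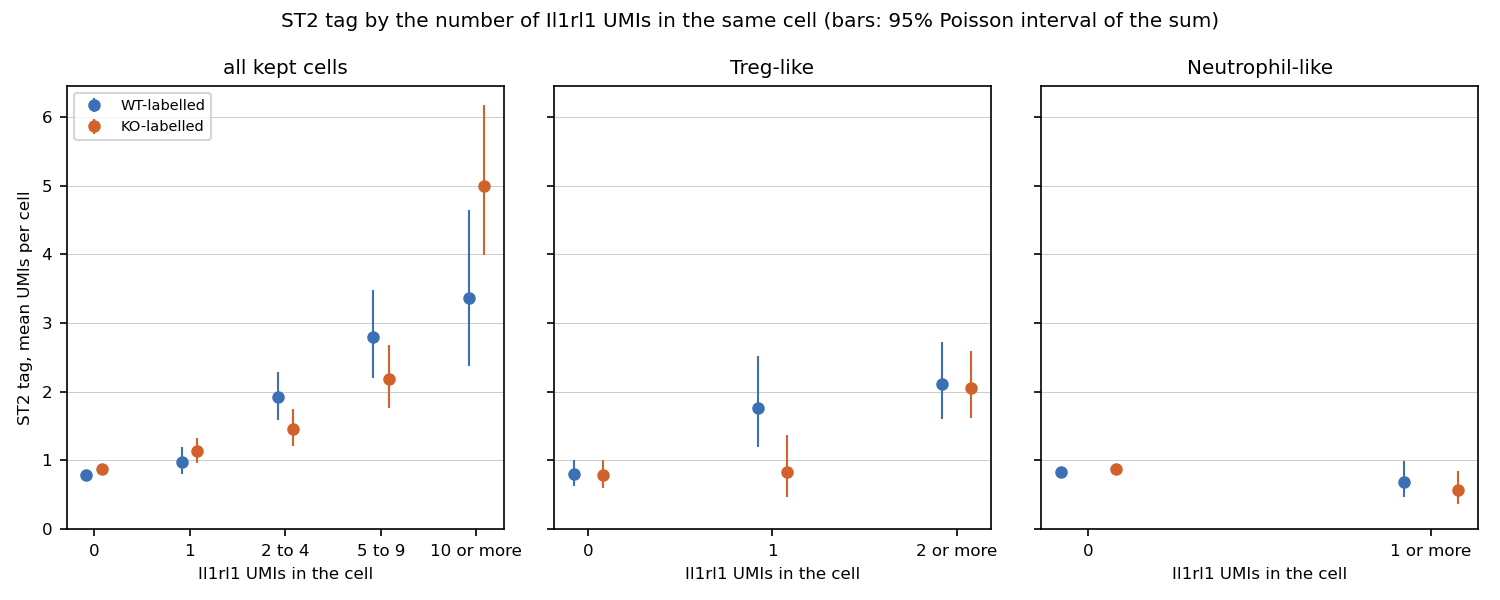
Mean ST2 tag UMIs per cell by the number of Il1rl1 UMIs in the same cell, for all kept cells, regulatory T-like cells and neutrophil-like cells, with 95% Poisson intervals of the sums. The mean rises from 0.787 to 3.36 and from 0.872 to 5.0 over all cells, and in neutrophil-like cells it is 0.69 and 0.571 with the RNA against 0.836 and 0.87 without.

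In neutrophil-like cells the tag was not higher with the RNA. The 42 cells with Il1rl1 RNA in each library had mean tags of 0.69 (interval 0.462 to 0.992) and 0.571 (interval 0.366 to 0.85), against 0.836 and 0.87 in cells without it. Read the other way, a high tag seldom marked an Il1rl1-carrying cell. Of cells with 8 or more tag UMIs, 5 of 38 (13.2%) and 7 of 29 (24.1%) carried Il1rl1, against 1.69% and 2.02% of cells without the tag, at median depths between 2765 and 3296 UMIs.

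The receptor chains for interleukins 4 and 13 lay mainly in other cells than the cytokines. T, NK and innate lymphoid clusters held 11.9% and 7.87% of Il4ra UMIs and 0.18% and 0.129% of Il13ra1 UMIs. Il4ra, which signals for both cytokines, was highest in interstitial macrophage-like cells at 249 and 361 CPM (ratio 0.54, interval 0.44 to 0.64). Those were made of 2 clusters with unlike levels. One had 622 and 616 CPM (ratio -0.01) and held 261 and 393 cells, and the other had 128 and 136 CPM (ratio 0.08, interval -0.11 to 0.28) and held 534 and 307 cells. The interval of the ratio within each cluster included 0. Of 3 members in this class 1, Il1rl1 at 11 and 18 UMIs, was past 2-fold, where 4.13% of 10849 genes were.

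In neutrophil-like cells Il4ra was at 115 and 203 CPM (ratio 0.82, interval 0.69 to 0.96), found in 20.4% and 32.3% of cells and, after thinning, in 10.4% and 18.6%. In the 5 clusters with at least 30 cells in each library the ratio ran from 0.50 to 1.20, and the lower bound of each interval was above 0. A further cluster of 8 and 131 cells was too small to compare, and 1 of the 5 held 195 and 816 cells. Il13ra1, the partner chain, was highest in these cells at 256 and 326 CPM (ratio 0.35, interval 0.25 to 0.45). Its ratio was 0.05 and -0.01 in 2 of these 5 clusters and between 0.36 and 0.58 in the other 3. In cDC2-like cells Il4ra was lower in the KO-labelled library, at 181 and 141 CPM (ratio -0.36, interval -0.55 to -0.16). In B-like cells, which use interleukin 4 for class switching, it was at 112 and 114 CPM (ratio 0.03, interval -0.24 to 0.29).

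Other genes of the type 2 programme in ILC2-like cells, from lists chosen by function, moved both ways. Of 10 lineage and activation factors with 20 or more UMIs, 5 were higher and 5 lower in the KO-labelled library (median ratio 0.01). Highest was Maf (11 and 25 UMIs, ratio 1.23, interval 0.15 to 2.40). Bcl11b (60 and 98, ratio 0.75, interval 0.27 to 1.24) and Id2 (179 and 241, ratio 0.47, interval 0.19 to 0.76) followed. Irf4 was lowest (33 and 14 UMIs, ratio -1.19, interval -2.21 to -0.25), then Junb (378 and 278, ratio -0.40, interval -0.63 to -0.17). For Batf (ratio -0.12) and the rest of these 10 factors the interval included 0. Of 12 signal transducers and feedback genes 9 were lower (median -0.30), and each of the 12 intervals included 0. Areg, the growth factor amphiregulin, was at 370 and 240 UMIs in 41 and 36 cells (ratio -0.58, interval -0.82 to -0.34). Ramp3, which joins Calcrl to form a receptor for adrenomedullin and CGRP-family peptides, was at 77 UMIs in 26 cells and 24 UMIs in 9 cells (ratio -1.64, interval -2.36 to -0.96). Ramp1, the partner in the CGRP receptor, was at 67 and 66 UMIs. Il7r, the receptor for interleukin 7, was at 119 and 153 UMIs (ratio 0.41, interval 0.05 to 0.76), and Il2ra at 262 and 240 (ratio -0.08).

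The alarmins themselves were scarce in these sorted cells. Il33 was counted at 22 and 240 UMIs, of which 213 in the KO-labelled library lay in 15 of 36 epithelial cell-like cells. In the WT-labelled library 9 of the 22 Il33 UMIs lay in epithelial cell-like cells, of which it had 22. Il25 had 0 and 1 UMI and Tslp 16 and 21.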

How the data were processed

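Gene and antibody-tag UMI counts per cell barcode were deposited by the authors as filtered matrices, per the file headers from Cell Ranger 7.0.0. The submitters' processing notes name versions 7.1.0 and 7.0.0 and build mm10. Barcodes with under 200 genes or over 10% mitochondrial UMIs (80 and 61) and doublet calls from simulated doublets (260 and 457, or 2.91% and 4.55%) were left out, and 16 barcodes occurred in both libraries. Cells were clustered with scanpy 1.11.5 (Python 3.11.15, NumPy 2.4.6, SciPy 1.17.1) on 3000 variable genes that excluded the members, Plaur, Xist, Tsix and Y-linked genes, ribosomal and mitochondrial genes and antigen-receptor V genes, at resolution 1, and the lymphoid clusters were clustered again. A class needed 3 markers in 20% of cells at 2-fold over the rest, limits set after seeing the data. UMIs were summed per class and library. Intervals are exact Poisson, Clopper-Pearson or conditional binomial intervals at 95% and cover counting error only. With 1 library per genotype there is no test and no p-value. On counts simulated as Poisson draws for the ILC2-like comparison (3472 genes), 96.3% of the intervals held the true value. Those draws follow the assumption of the intervals and have no spread between cells. They check the calculation only, not the intervals of genes concentrated in few cells.

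The members and gene lists were chosen with earlier results of these data known. All members are named. Of each pathway list the genes with 20 or more UMIs in the class were counted, and up to 3 with the highest and 3 with the lowest ratio could be named. For 7 members up to 5 genes with the most similar profile over classes could be named. Alternatives were doublets kept, stricter filters, members kept in clustering, resolution 2, thinning to 1000 UMIs per cell, edgeR 4.0.16 and DESeq2 1.42.0 scaling, and leaving out the 5 cells with most UMIs. Pooling with the unnamed Il1rl1-led cluster, weighting clusters alike and leaving out barcodes with basophil markers were added after seeing the data. Sequences and coordinates are RefSeq's (GRCm38.p6) and all 9 members were matched.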

Additional observations from a re-analysis of the deposited data

Results flagged for a closer look

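For each of 5 members with UMIs in both libraries the ratio of KO-labelled over WT-labelled took opposite signs between classes, with intervals that left out 0. For each, the class whose interval lay farthest from 0 on either side is given. The difference between the classes was not tested in any of them, since each rests on 1 library per genotype. Il5 was higher in the CD4 T-like cluster led by Il17a and Angptl2 (1.24) and lower in ILC2-like cells (-0.91). Il4 was higher in the CD4 T-like cluster led by Cd40lg and Nebl (2.05, of which 15 of 21 KO-labelled UMIs lay in 1 cell) and lower in neutrophil-like cells (-5.32, of which 28 of 29 WT-labelled UMIs lay in barcodes with basophil markers). The latter was -0.51 with doublet calls kept and -0.46 with the members kept in the clustering. Gata3 was higher in the CD4 T-like cluster led by Il17a and Angptl2 (1.05) and lower in neutrophil-like cells (-2.46, on 12 and 3 UMIs). Il4ra was higher in neutrophil-like cells (0.82) and lower in cDC2-like cells (-0.36). Il13ra1 was higher in plasmacytoid dendritic cell-like cells (0.88) and lower in the unnamed cluster led by Vcan and F13a1 (-0.17, interval -0.32 to -0.02). When the 5 highest Il13ra1 cells of each library were left out, the latter was -0.12 (interval -0.28 to 0.04). Il1rl1, compared in 10 classes or clusters, was higher in 5, and in 4 the interval included 0. The 5 include cDC2-like cells, where the sign changed with thinning, and interstitial macrophage-like cells, on 11 and 18 UMIs. In plasma cell-like cells Il1rl1 had 11 UMIs and 0 UMIs.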

How the results depend on the processing

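Of 238 alternatives over 36 results, 191 stayed within the counting interval, 44 moved further and 3 changed sign beyond it. Within it, Gata3 in ILC2-like cells (-0.09) became 0.11 with the members kept in the clustering and 0.14 when pooled. The sign changed beyond it for Il4 in ILC2-like cells without the 5 cells with most UMIs (1.01), and for Il1rl1 in cDC2-like cells with at least 500 genes per cell (-0.27) and with thinning (-0.12). The cause was not tested. Keeping the members in the clustering gave ILC2-like ratios of -0.59 for Il5 and 0.68 for Il1rl1, ILC2-like shares of 1.15% and 0.939% and ST2 tags 1.16 and 1.10 above B-like cells. Pooling with the unnamed Il1rl1-led cluster gave -0.56 for Il5, -2.02 for Il13, shares of 0.898% and 0.897%, and 69.9% of Il5 and 23.7% of Il13 UMIs in the KO-labelled class. Thinning gave -0.45 for Il5, and leaving out 5 cells -4.35 for Il13. The WT-labelled share of Il5 in ILC2-like cells was 75.7% with doublets kept and 75.9% both with at least 500 genes and with at most 5% mitochondrial UMIs. A centred log-ratio put the ILC2-like tag 0.86 and 0.62 above B-like cells. The tag and RNA correlation was 0.56 and 0.57 as Spearman's rho and 0.55 and 0.49 without ILC2-like cells. Genes past 2-fold numbered 311, 309, 478 and 531 in ILC2-like, Treg-like, cDC2-like and neutrophil-like cells, 14, 6, 60 and 96 with at least 100 UMIs, and 3953, 3256, 3582 and 4444 with no minimum. A median tag gave no value because the B-like median was 0. No paired analysis was possible because each genotype had 1 library. Few cells carried Il17rb and the cytokines, so their values rest on few UMIs.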

Other observations

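Genes known to respond to interleukins 4 and 13 in macrophages and dendritic cells were compared in the classes that carried Il4ra and Il13ra1. Some of them were also among the markers that named a class. These were Chil3, Ear2 and Mrc1 for alveolar macrophage-like cells, Mgl2 and Clec10a for cDC2-like cells, and Ccl22 and Ccl17 for CCR7 dendritic cell-like cells. Their ratios are thus not independent of the naming, and a response to the cytokines was not tested. In interstitial macrophage-like cells 17 of 18 genes had 20 or more UMIs, of which 13 were higher and 4 lower in the KO-labelled library. The median ratio was 0.60, against -0.03 over all 10849 genes with 20 or more UMIs. Past 2-fold were 5 higher and 3 lower, where 1.68% and 2.45% of all genes were. Arg1, the enzyme arginase 1, was at 202 and 672 UMIs (ratio 2.26, interval 2.03 to 2.49) and the lectin Mgl2 at 307 and 603 (47.6 and 135 CPM). Retnla, which encodes the secreted protein RELM-alpha, was at 480 and 164 UMIs (ratio -1.02, interval -1.29 to -0.76). It lay in 25 and 22 cells, and leaving out the 5 highest cells of each library gave -2.43. The lipoxygenase Alox15 was at 60 UMIs in 3 cells and 1 UMI. The 2 clusters of this class held different numbers of cells in the libraries, and the part of that in these ratios was not tested. In alveolar macrophage-like cells 10 of 11 were higher (median 0.42, against -0.02 over all genes). In cDC2-like cells 10 of 16 were higher (median 0.23, against 0.01 over all genes). The chemokine Ccl17 was at 7017 and 11897 UMIs there (ratio 0.55, interval 0.50 to 0.59), while Chil3 was at 1134 and 824 (ratio -0.67, interval -0.81 to -0.54). In CCR7 dendritic cell-like cells 6 of 10 were higher and 4 lower (median 0.23, against -0.07 over all genes). Past 2-fold were 2 higher and 4 lower, where 1.84% and 5.74% of all genes were. Ccl17 was at 3667 and 5106 UMIs (ratio 0.89, interval 0.83 to 0.95) and Mgl2 at 49 and 96 (ratio 1.38, interval 0.87 to 1.91). The chemokine Ccl2 was at 100 and 4 UMIs (ratio -4.23), Fn1, which encodes fibronectin, at 64 and 3 (ratio -4.00), and Chil3 at 321 and 42 (ratio -2.52, and -0.91 when the 5 highest cells of each library were left out). In neutrophil-like cells 6 of 10 were higher and 4 lower (median 0.36, against -0.07 over all genes). The ratios ran from Retnla (17 and 13 UMIs, -0.85, interval -2.01 to 0.28) to Tfrc (17 and 40 UMIs, 0.77, interval -0.08 to 1.68). For most of these genes the interval included 0, and those whose interval left out 0 lay on both sides.

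Across 57 class or cluster profiles of both libraries, taken as log2(CPM + 10), the genes outside the members with the most similar profile were Areg (Pearson r 0.89) and Neb (0.85) for Il1rl1, and Hlf and Dach2 (both 0.84) for Il5. They were Ccl1 for Il13 (0.85) and for Il4 (0.78), Dach2 for Calca (0.88), Zap70 for Gata3 (0.93) and Tcrg-C1 for Il17rb (0.80). The points share 2 libraries and most are near 0 for these genes, so the values describe where the RNA lay.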
